A study of Caenorhabditis elegans with 12 samples.

Results

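The cytosolic ribosome of Caenorhabditis elegans is described here through 77 genes for its proteins, out of 44968 features counted. They were taken by symbol, as every gene whose name begins rpl-, rps- or rla- followed by a digit, and joined to the counts by sequence name. The rule also takes rpl-24.2, whose counterpart in yeast is a factor of the maturing large subunit. The large subunit contributes 43 of them (rpl), the small subunit 31 (rps) and the acidic stalk 3 (rla). The genes for the mitochondrial ribosome carry other symbols and are not among them. The counts come from mRNA sequencing of whole first-stage (L1) larvae of the wild-type strain N2, grown from bleached embryos, 5000 of them on a plate, so that each library pools many larvae, and held for 24 h at 25 °C. The plates carried 100 or 500 mM NaCl, with OP50 bacteria as food or with none, which gives 4 groups, each of 3 biological replicates with the letters A to C. They are called fed or unfed, at low (100 mM) or high (500 mM) salt. The series title names osmotic arrest, taken here as the state of fed larvae at high salt, and starvation arrest, taken as that of unfed larvae at low salt. All libraries are from a single time, so in every comparison with fed larvae at low salt the treatment and the larvae's growth over that time cannot be told apart.

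A ribosome is built from a large and a small subunit, each an rRNA scaffold covered with proteins that are mostly present in a single copy, so a cell needs these proteins in near-equal numbers. The mRNAs for them are among the most abundant of growing animal cells, and in many organisms their synthesis is tied to nutrient supply and growth through the TOR pathway. L1 larvae that hatch without food halt development and live on stores from the egg, and larvae that hatch in high salt halt as well.

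The 77 genes were measured well in every library. All of them passed the filter on low counts, and the fewest reads on any of them in a library were 102, for rpl-11.1 in fed high-salt replicate C. By mean level over the 12 libraries, in counts scaled to 1000000 reads per library (CPM), 50 of the 77 stood among the 100 highest of 18028 genes tested and 73 among the 300 highest. rla-0, the base of the stalk that recruits elongation factors, was highest at 3269 CPM, followed by rpl-4, which lines the exit tunnel, at 3092 CPM, and by rpl-3, which reaches toward the peptidyl transferase centre, at 2790 CPM. Per kilobase of exon the median gene had 2385 CPM, and the level ran up to 4736 CPM per kilobase for rpl-43. A pair of genes stood well below: rpl-11.1 with 240.9 and rpl-24.2 with 232.7 CPM per kilobase, whereas the third from the bottom, rpl-25.2, had 812.4. These 77 genes are spread over all chromosomes, with 23 on I, 18 on IV, 17 on III, 9 on II, 8 on V and 2 on X, and 13 hold a small nucleolar RNA gene within their bounds. Their exons, in the Ensembl release 115 annotation of WBcel235, add up to between 236 bases (rpl-39) and 1456 bases (rpl-3).

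Libraries differed in ways that bear on any CPM value. Reads on genes ran from 5613260 to 76542711, and rRNA genes took from 1.32% of them in unfed low-salt B to 81.8% in fed high-salt C. Fed high-salt B had 39.9% rRNA and fed high-salt A 9.13%, while the 3 fed low-salt libraries lay between 2.65% and 4.68%. Unfed high-salt A had the fewest reads, with 38.6% of reads aligned against 70.1% or more elsewhere. Markers of intestine, muscle, pharynx, neurons, epidermis and germ line were read in all 12 libraries for 14 of 14 genes, and 4 adult markers (vit-2, vit-5, vit-6, col-19) had at most 117 reads in any library. Whole larvae were sequenced, so fewer cells of a type and less RNA per cell cannot be told apart.

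The ribosomal protein mRNAs made up a smaller part of the transcriptome at high salt, whichever the food. Shares were taken of reads on genes other than rRNA, so that neither rRNA reads nor scaling factors enter the calculation. The 77 genes together held 17.2%, 14.8% and 13.8% in fed low-salt replicates A to C, and 15.9%, 20.9% and 15.5% in unfed low-salt replicates A to C. They held 9.46%, 8.94% and 5.53% in fed high-salt replicates A to C, and 11.5%, 9.71% and 10.6% in unfed high-salt replicates A to C. Every high-salt library lay below every low-salt library, and the fed and unfed libraries overlapped at low salt, while at high salt the 3 fed libraries lay below the 3 unfed ones. The lowest share was in the library with most rRNA, fed high-salt C, and the highest in that with least, unfed low-salt B. The part of library preparation in the share was not tested. The group means were 15.3% ± 1.76 (SD, n = 3) fed and 17.5% ± 3.02 (SD, n = 3) unfed at low salt, against 7.98% ± 2.13 (SD, n = 3) fed and 10.6% ± 0.897 (SD, n = 3) unfed at high salt. Without replicate C, the library with most rRNA, the fed high-salt mean was 9.20%. Counting error is far smaller than these gaps: the widest 95% Wilson interval, that of unfed high-salt A, ran from 11.48% to 11.53%, and such intervals cover counting error only.

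**Figure D1:**
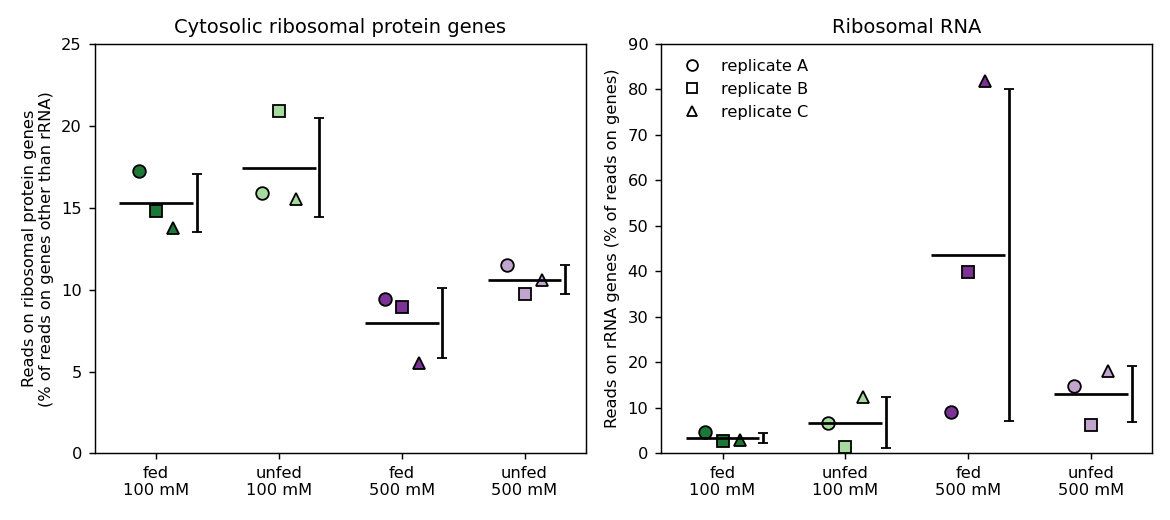
Left, reads on the 77 ribosomal protein genes as a percentage of reads on genes other than rRNA; right, reads on rRNA genes as a percentage of reads on genes. Each symbol is a library, long bars are group means and whiskers are SD (n = 3). The 6 high-salt libraries lie below the 6 low-salt libraries on the left, and fed high-salt C is lowest on the left at 5.53% and highest on the right at 81.8%.

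With food present, 500 mM NaCl went with lower mRNA of nearly the whole cytosolic ribosome. By edgeR's quasi-likelihood F test, two-sided with Benjamini-Hochberg adjustment over all genes tested, 76 of the 77 genes were lower at an adjusted p under 0.05 and none was higher, beside 22.1% of all genes called lower in that comparison. The median log2 fold change of the 77 was -1.40, beside 0.12 for all genes tested, and 75 of them fell by more than 1 on the log2 scale. The large-subunit genes fell in 42 of 43 cases (median log2 fold change -1.38), the small-subunit genes in 31 of 31 (median -1.42) and the stalk genes in 3 of 3 (median -1.29). Without fed high-salt C 75 were called, with a median of -1.24, and without both that library and unfed high-salt A 76 were called, with a median of -1.20.

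Among large-subunit proteins, rpl-3 had 4313, 4278 and 4079 CPM in fed low-salt replicates A to C, and 1458, 1685 and 1053 CPM in fed high-salt replicates A to C. The lowest of the former is more than any of the latter. Its log2 fold change was -1.59 ± 0.27 (SE, adjusted p = 0.00027, edgeR quasi-likelihood test). rpl-22, which sits near the mouth of the exit tunnel, had 1481, 1248 and 1120 CPM fed at low salt and 456.4, 488.8 and 209.8 CPM fed at high salt in A, B and C. It had a log2 fold change of -1.74 ± 0.33 (SE), and among the 77 it stands next to rpl-11.1 as the gene that fell most. rpl-26, a neighbour at the tunnel exit, fell by 1.68 ± 0.31 (SE) on the log2 scale.

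Among small-subunit proteins, rps-12 had 2260, 1747 and 1584 CPM fed at low salt and 751.0, 649.5 and 294.7 CPM fed at high salt, with a log2 fold change of -1.72 ± 0.33 (SE). rps-2, at the channel through which mRNA enters, had 3145, 3093 and 2806 CPM fed at low salt and 1228, 1298 and 703.6 CPM fed at high salt. Neither gene overlapped between the groups. Of the genes that fell, rps-29, a small zinc-binding protein of the small subunit's head, fell least, by 0.99 ± 0.32 (SE) on the log2 scale.

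The stalk proteins moved with the rest. rla-0 had 4961, 4316 and 4252 CPM fed at low salt and 2307, 2319 and 1643 CPM fed at high salt, a log2 fold change of -1.11 ± 0.24 (SE). rla-1 and rla-2, the acidic proteins that pair up on rla-0, had log2 fold changes of -1.43 ± 0.32 and -1.29 ± 0.35 (SE). The balance of the subunits changed little by comparison: the log2 ratio of reads on small-subunit to large-subunit genes was -0.24 ± 0.03 (SD, n = 3) fed and -0.31 ± 0.03 (SD, n = 3) unfed at low salt, and -0.28 ± 0.03 (SD, n = 3) fed and -0.23 ± 0.05 (SD, n = 3) unfed at high salt.

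**Figure D2:**
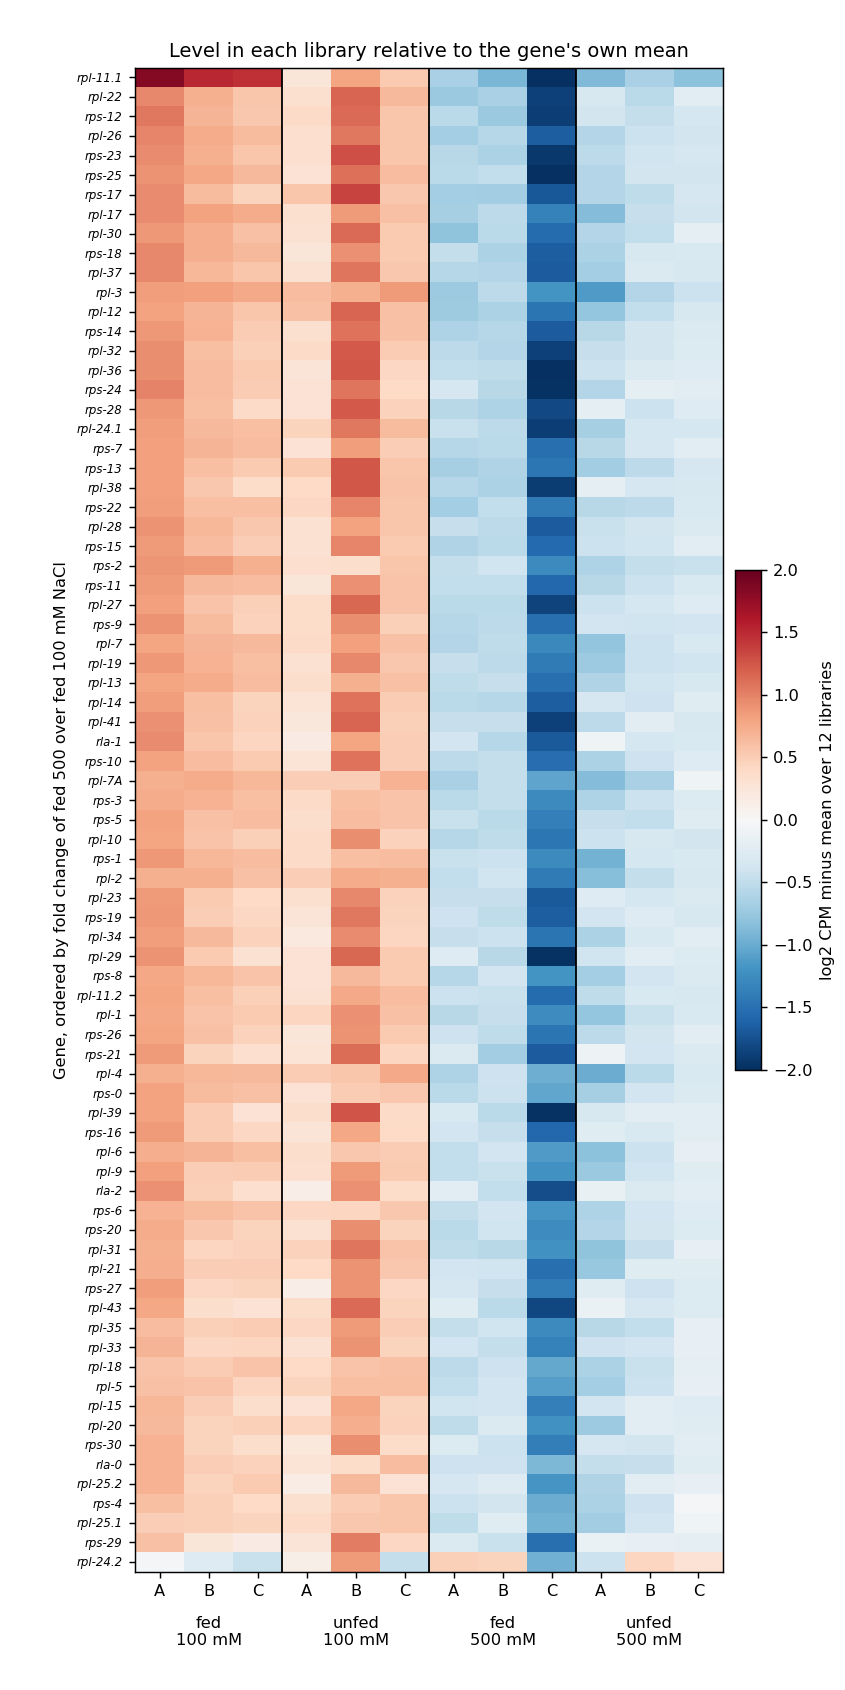
Level of each of the 77 genes in each library as log2 CPM minus the gene's own mean over the 12 libraries, with genes ordered by the fold change of fed high-salt over fed low-salt larvae; colours stop at -2 and 2. The low-salt columns are red and the high-salt columns blue for 76 genes, with fed high-salt C the deepest blue and unfed low-salt B the deepest red for many of them, and rpl-24.2 in the bottom line does not follow the others.

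Without food, high salt again went with lower levels, with fewer genes past the threshold. By the same edgeR test 58 of 77 genes were lower at 500 than at 100 mM NaCl and none was higher, beside 11.2% of all genes called lower. The median log2 fold change of the 77 was -0.99, beside 0.08 for all genes. The call was made for 34 of 43 large-subunit, 23 of 31 small-subunit and 1 of 3 stalk genes, and 75 of the 77 had an unadjusted p under 0.05. The count moved with single libraries. Leaving out a library of the unfed low-salt group gave 11 (B) or 15 (C), and leaving out one of the unfed high-salt group gave 31 (A), 15 (B) or 38 (C). It was 38 or 36 without replicate A or B of the fed low-salt group, which enters only through the filter, scaling and spread, and 70 without both fed high-salt C and unfed high-salt A. Shares of all genes called in these fits are not given here. A loss of calls among the 77 therefore cannot be told from a loss among all genes.

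rpl-3 was the gene that fell most, with 3731, 3972 and 4393 CPM in unfed low-salt replicates A to C and 1102, 1617 and 1800 CPM in unfed high-salt replicates A to C. Its log2 fold change was -1.42 ± 0.27 (SE, adjusted p = 0.0013, edgeR quasi-likelihood test). rps-17 (-1.35 ± 0.32), rps-13 (-1.33 ± 0.29) and rpl-12 (-1.32 ± 0.28) followed, each as a log2 fold change with its SE. rpl-12 belongs to the base of the stalk, where rla-0 had -0.82 ± 0.24 (SE, adjusted p = 0.027). rla-1 and rla-2, with -0.75 ± 0.32 and -0.72 ± 0.35 (SE), did not pass.

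Across all libraries, the ordering by salt was nearly complete. In 76 of the 77 genes the 6 high-salt libraries all lay below the 6 low-salt libraries in CPM, beside 11.6% of all genes tested. Taken by food, 76 genes did not overlap between salts with food (32.1% of all genes were lower without overlap) and 76 without food (16.8%), and rpl-24.2 is the exception in each. Of the 76 called with food, 58 were also called without food and 18 were not. rpl-24.2 was called in neither comparison.

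Some tissue markers also differed between the salts. Of the 14 markers of larval tissues, 4 were higher and 4 lower at high salt with food, by edgeR's quasi-likelihood test. Of all genes, 16.1% were called higher and 22.1% lower there. Without food 3 markers were higher and 4 lower, beside 6.72% of all genes called higher and 11.2% called lower. In fed high-salt larvae set against the starved low-salt group 5 were higher and 2 lower, with 14.5% of all genes called lower. Whether the marker counts depart from these shares was not tested. Their summed level ran from 6985 to 11073 CPM over the fed and 4220 to 7282 CPM over the unfed libraries at low salt, and from 11574 to 15570 CPM over the fed and 5390 to 11147 CPM over the unfed libraries at high salt. Muscle and pharynx genes made up most of this sum, with the muscle myosin gene unc-54 alone at 1141 to 6250 CPM, so it says little of the other tissues. None of the 14 markers was at 0 reads in any library. The epidermal collagen gene dpy-7 ran from 128.7 to 315.2 CPM over the 6 low-salt libraries and from 1.39 to 12.8 CPM over the 6 high-salt ones. ges-1, an esterase of the intestine, ran from 35.6 to 54.4 CPM at low salt and from 6.64 to 14.7 CPM at high salt. elt-2, also an intestinal marker, went the other way, from 20.6 to 28.2 CPM at low salt and from 36.7 to 63.2 CPM at high salt. The intestinal marker ifb-2 ran from 465 to 665 CPM at low salt and from 183 to 463 CPM at high salt. lin-26, the other epidermal marker, overlapped between salts, with 72.0 to 113.1 CPM at low and 52.1 to 109.9 CPM at high salt. The pharyngeal myosin gene myo-2 was higher, with 2902 to 4357 CPM fed at high salt against 484.4 to 952.4 CPM fed at low salt. The part of tissue make-up in the fall of the ribosomal protein genes was not tested.

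None of the 77 genes was called for lack of food at 100 mM NaCl. By edgeR's quasi-likelihood test 0 of 77 passed, beside 7.68% of all genes called in either direction, and 1 gene, rpl-11.1, had an unadjusted p under 0.05. DESeq2 and edgeR's exact test each called 1. The median log2 fold change was -0.03, beside 0.15 for all genes, with 44 genes below 0 and 33 above. The groups did not overlap for 6 genes that were lower without food (rpl-6, rpl-11.1, rps-0, rps-1, rps-2 and rps-6), beside 20.5% of all genes. rps-2 had 2146, 2186 and 2511 CPM unfed, below the fed values given above, with a log2 fold change of -0.40 ± 0.26 (SE, adjusted p = 0.33, edgeR quasi-likelihood test). By group mean, 44 genes were highest in fed and 33 in unfed larvae at low salt. Unfed low-salt B held the highest of the 12 CPM values for 51 genes, at a median of 1.43 times the mean of A and C. Without it the median log2 fold change was -0.24 and again no gene passed.

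Food made no detected difference at 500 mM NaCl either, though the direction was shared. By edgeR's quasi-likelihood test 0 of 77 genes passed, beside 0.0777% of all genes, and 0 had an unadjusted p under 0.05 (1 by DESeq2, which also called 0, as did the exact test). All 77 log2 fold changes of unfed over fed were above 0, with a median of 0.36 beside 0.15 for all genes, and the range was 0.02 (rpl-24.2) to 0.64 (rpl-38). rpl-22 had 610.7, 527.7 and 651.9 CPM unfed against the fed values given above, and rpl-38, a short large-subunit protein, 591.7, 537.7 and 542.5 CPM unfed against 457.5, 435.5 and 181.5 CPM fed, in A, B and C. Neither overlapped, and in both genes replicate C of the fed group stands far below A and B. In 21 genes the 3 unfed libraries lay above the 3 fed ones, beside 6.61% of all genes. Much of the median came with fed high-salt C, which held the lowest of the 12 CPM values for 76 genes, at a median of 0.497 times the mean of A and B: without it the median was 0.13, beside 0.21 for all genes.

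Whether the effect of food depends on salt was tested as the interaction. By edgeR's quasi-likelihood test 0 of 77 genes passed, beside 1.56% of all genes called above 0 and 0.433% called below, with 1 at an unadjusted p under 0.05 and 1 called by DESeq2, in both cases rpl-11.1. The median interaction was 0.40 on the log2 scale, beside -0.04 for all genes, and 76 of 77 values were above 0. Without fed high-salt C it was 0.23, beside 0.06 for all genes.

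Set against each other, the osmotic and the starved larvae differed throughout the cytosolic ribosome. In fed high-salt larvae against unfed low-salt ones 76 of 77 genes were lower by edgeR's quasi-likelihood test, beside 14.5% of all genes called lower, with a median log2 fold change of -1.37 beside -0.08 for all genes. The same 76 did not overlap between the groups, beside 23.3% of all genes. The log2 fold changes lowest among them were -1.81 ± 0.32 (SE) for rps-17, -1.74 ± 0.33 (SE) for rpl-22 and -1.71 ± 0.35 (SE) for rps-23, a protein of the decoding centre. Those nearest 0 after rpl-24.2 were -0.91 ± 0.28 (SE) for rpl-25.2 and -0.98 ± 0.24 (SE) for rla-0. Without fed high-salt C 70 genes passed, with a median of -1.13. This comparison shares its libraries with the others above, so its values are not separate evidence.

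**Figure D3:**
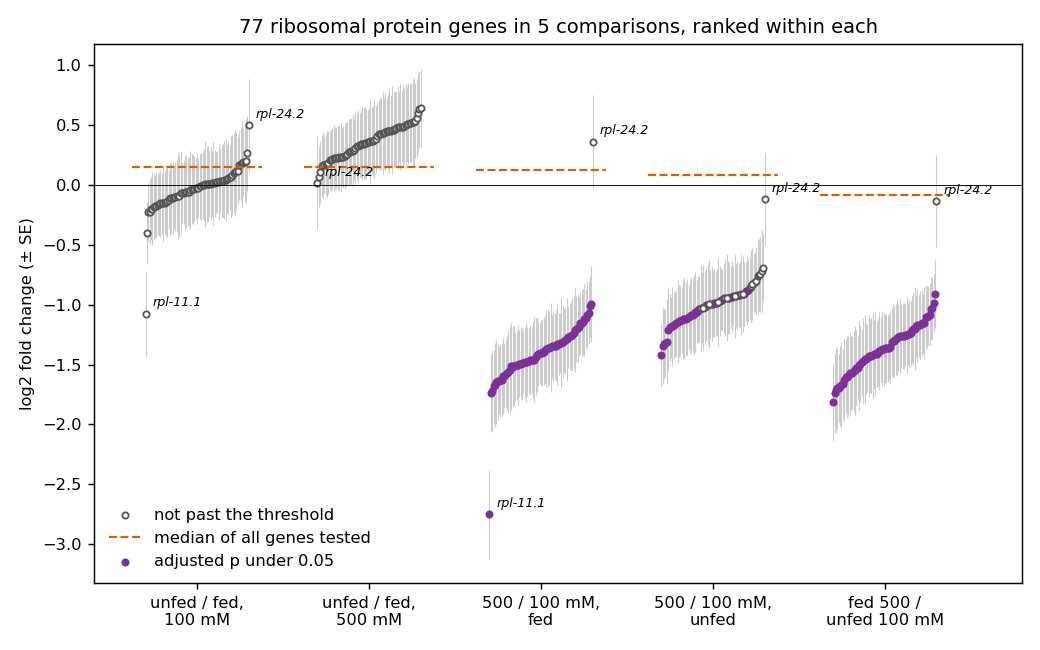
Log2 fold change with SE of each of the 77 genes in the 5 pairwise comparisons, ranked within each; filled points have an adjusted p under 0.05 in edgeR's quasi-likelihood test, and the dashed line is the median of all 18028 genes tested. The 3 comparisons of high against low salt hold 76, 58 and 76 filled points, all below 0, and the comparisons of unfed against fed hold none.

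Because CPM depends on scaling, each gene was also set against the sum of the 77 in the same library. The 77 are centred near 0 on that scale by construction, so the shares of all genes given beside these counts carry the shift of the sum itself and only single departures are read from it. With food, 2 of 77 genes departed from it between salts at an adjusted p under 0.05, beside 61.0% of all genes: rpl-24.2, higher by 1.69 ± 0.33 (SE) on the log2 scale, and rpl-11.1, lower by 1.44 ± 0.29 (SE). Without food, 1 of 77 departed between salts, beside 41.0% of all genes, and in fed high-salt larvae against unfed low-salt ones 1 of 77, beside 51.0%, each time rpl-24.2. The other comparisons gave 0 of 77 by this edgeR test, beside 3.05% (food at low salt), 0% (food at high salt) and 0.388% (interaction) of all genes. The median of all genes on this scale was 1.58 with food, so rpl-24.2 lay near that median.

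rpl-11.1 was the cytosolic ribosomal protein gene that varied most. It and rpl-11.2 each code for the large-subunit protein L11, which binds 5S rRNA together with L5. rpl-11.1 had 407, 323.2 and 312.2 CPM in fed low-salt replicates A to C and 135.1, 195.6 and 163.9 CPM in unfed low-salt replicates A to C. It had 73.0, 60.4 and 20.7 CPM in fed high-salt replicates A to C and 61.9, 72.7 and 64.7 CPM in unfed high-salt replicates A to C. The 3 fed low-salt libraries stand above all others, the unfed low-salt libraries come next, and both high-salt groups lie below and overlap each other. The log2 fold change between salts was -2.75 ± 0.37 (SE, adjusted p = 4.7e-05) with food and -1.31 ± 0.35 (SE, adjusted p = 0.016) without, by edgeR's quasi-likelihood test.

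Its response to food alone lay near the threshold. At low salt the log2 fold change of unfed over fed was -1.08 ± 0.35 (SE, adjusted p = 0.071, edgeR quasi-likelihood test), with every unfed library below every fed one. DESeq2 (adjusted p = 0.016), edgeR's exact test (adjusted p = 0.036) and the fit without fed high-salt C (adjusted p = 0.026) called it lower, and over all alternatives the adjusted p ran from 0.0072 to 0.26. In the authors' deposited table its log2 fold change for the same comparison was -1.04 with a false discovery rate of 0.032. The interaction was 1.44 ± 0.50 (SE, adjusted p = 0.14, edgeR quasi-likelihood test), and its adjusted p ran from 0.038 to 0.32 over the alternatives.

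The share of rpl-11.1 in the reads on both L11 genes needs no scaling between libraries. It was 14.9%, 13.6% and 14.3% in fed low-salt replicates A to C, and 7.49%, 7.90% and 7.39% in unfed low-salt replicates A to C. It was 6.81%, 5.73% and 4.30% in fed high-salt replicates A to C, and 6.13%, 6.26% and 5.66% in unfed high-salt replicates A to C. The fed low-salt libraries stand apart as the highest, the unfed low-salt ones lie above all high-salt ones, and the high-salt groups overlap. rpl-11.2, on chromosome X where rpl-11.1 is on V, had a log2 fold change between salts of -1.35 ± 0.30 (SE) with food and -0.06 ± 0.29 (SE) for lack of food at low salt.

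Levels of germ-line genes are given beside those of rpl-11.1. pgl-1, a P-granule protein, had 79.7, 82.4 and 95.3 CPM in fed low-salt replicates A to C, 18.8, 12.4 and 29.4 CPM in unfed low-salt, and between 3.22 and 14.5 CPM over the 6 high-salt libraries. glh-1, a P-granule helicase, had log2 fold changes of -2.20 ± 0.30 (SE) for lack of food at low salt and -2.75 ± 0.31 (SE) for high salt with food. Of the translation factors listed below, iff-1, an eIF5A gene known for its role in the germ line, had log2 fold changes of -1.67 ± 0.32 and -3.38 ± 0.35 (SE). All 3 passed edgeR's quasi-likelihood test in both comparisons, whereas rpl-11.1 passed for high salt with food and not for lack of food. At high salt without food, where rpl-11.1 passed, the log2 fold changes were -1.39 ± 0.37 for pgl-1 and -1.29 ± 0.32 for iff-1, which passed, and -0.86 ± 0.29 (all SE) for glh-1, which did not (adjusted p = 0.054, edgeR quasi-likelihood test). Their part in the result for rpl-11.1 was not tested.

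rpl-24.2 was the only one of the 77 not called lower at high salt with food. The RefSeq table names it rsl-24D1, and its counterpart in yeast, Rlp24, is a factor that travels with the maturing large subunit and is replaced by the ribosomal protein L24, for which rpl-24.1 codes. rpl-24.2 had 125.9, 106.8 and 94.0 CPM in fed low-salt replicates A to C and 138.2, 230.3 and 91.9 CPM in unfed low-salt replicates A to C. It had 177.9, 173.9 and 66.0 CPM in fed high-salt replicates A to C and 95.3, 171.8 and 156.1 CPM in unfed high-salt replicates A to C. All groups overlap, and within each of the 3 groups other than fed low-salt the libraries lie far apart. The log2 fold change of high over low salt was 0.36 ± 0.39 (SE, adjusted p = 0.47) with food and -0.12 ± 0.39 (SE, adjusted p = 0.87) without, by edgeR's quasi-likelihood test.

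Against rpl-24.1 the difference was plain in each library. rpl-24.1 made up 94.6%, 94.7% and 95.2% of the reads on the pair in fed low-salt replicates A to C, and 92.3%, 91.7% and 95.4% in unfed low-salt. It made up 83.5%, 83.0% and 83.4% in fed high-salt replicates A to C, and 89.0%, 84.8% and 86.0% in unfed high-salt. All 6 high-salt libraries lie below all 6 low-salt ones, and fed high-salt C does not stand apart from A and B. rpl-24.1 itself had a log2 fold change between salts of -1.52 ± 0.33 (SE) with food and -1.18 ± 0.33 (SE) without. Relative to the summed 77 genes, the rise of rpl-24.2 without food was 0.90 ± 0.32 (SE, adjusted p = 0.036, edgeR quasi-likelihood test), and its adjusted p ran from 0.011 to 0.15 over the alternatives, 7 of the fits that leave out a library being past 0.05.

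The remaining pair of genes whose symbols differ only after a dot kept its proportion. rpl-25.1 and rpl-25.2 code for the protein at the tunnel exit where factors for nascent chains dock. The log2 ratio of their reads was 0.34 ± 0.12 (SD, n = 3) fed and 0.55 ± 0.21 (SD, n = 3) unfed at low salt, and 0.45 ± 0.20 (SD, n = 3) fed and 0.36 ± 0.13 (SD, n = 3) unfed at high salt, and the groups overlap. How the counting treated reads that match both copies of such a pair is not stated by any source used here, so the split within a pair is uncertain where the copies are alike.

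**Figure D4:**
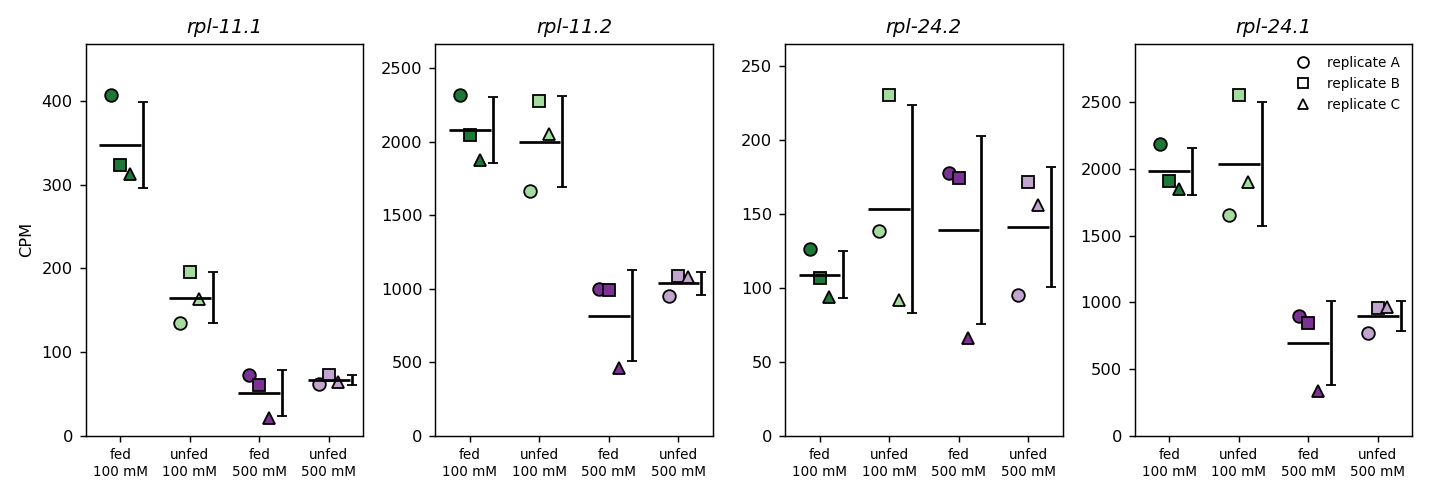
CPM of rpl-11.1, rpl-11.2, rpl-24.2 and rpl-24.1 in each library, with group means (long bars) and SD (whiskers, n = 3); the vertical scales differ. rpl-11.1 steps down from fed to unfed larvae at low salt and again at high salt, rpl-11.2 and rpl-24.1 separate by salt alone, and the groups of rpl-24.2 overlap.

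Short and long genes of the 77 did not move alike in every comparison. Across the 77 genes, which share libraries and depth, Pearson's r of the log2 fold change with log exon length was -0.70 for unfed over fed at high salt (n = 77 genes) and -0.004 for high over low salt with food. In the former the 33 genes under 500 bases had a median log2 fold change of 0.47 and the 20 genes of at least 700 bases one of 0.22. Without fed high-salt C, a fit added after seeing the data, r was -0.54 and the medians were 0.18 and 0.08. For lack of food at low salt r was -0.40, and 0.09 without unfed low-salt B.

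The same shows library by library in the log2 ratio of reads on the 33 short to reads on the 20 long genes. It was -0.21, -0.39 and -0.42 in fed low-salt replicates A to C, and -0.39, 0.09 and -0.43 in unfed low-salt replicates A to C. It was -0.21, -0.38 and -0.76 in fed high-salt replicates A to C, and 0.02, -0.21 and -0.27 in unfed high-salt replicates A to C. All groups overlap. Unfed low-salt B and unfed high-salt A stand highest and fed high-salt C lowest, and these are the libraries with the least rRNA (1.32%), the least alignment (38.6%) and the most rRNA (81.8%). The part of library preparation in the ratio was not tested.

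**Figure D5:**
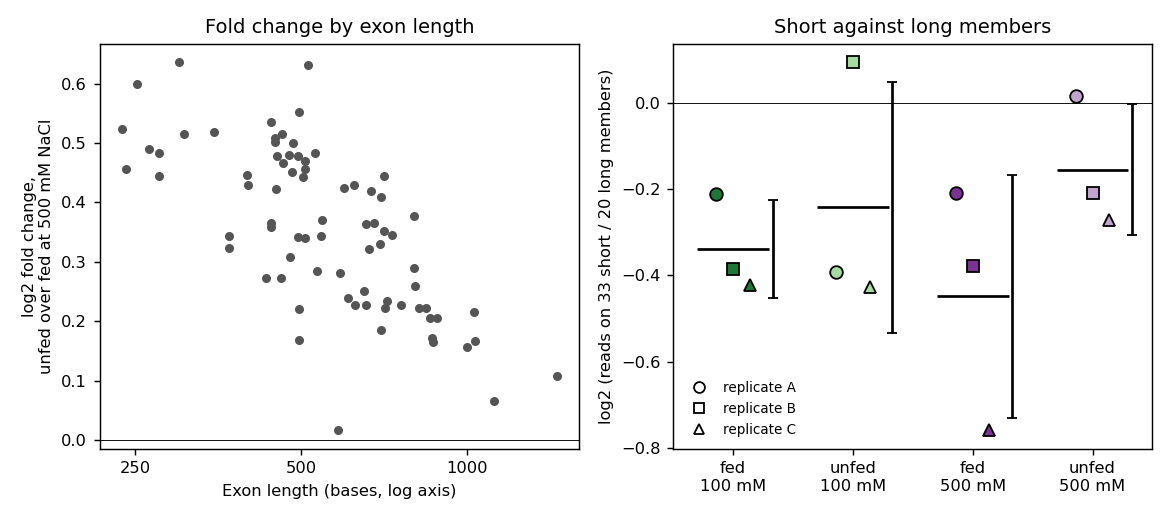
Left, log2 fold change of unfed over fed larvae at high salt against exon length (log axis) for each of the 77 genes; right, log2 ratio of reads on the 33 genes under 500 bases to reads on the 20 genes of at least 700 bases in each library, with group means and SD (n = 3). Shorter genes have higher fold changes on the left (r = -0.70), and fed high-salt C is lowest on the right at -0.76.

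For genes that work beside the ribosomal proteins, counts are set beside the shares of all genes called lower: 22.1% at high salt with food, 11.2% at high salt without food and 4.11% for lack of food at low salt. No list was tested against another. ubl-1 and ubq-2, which code for ribosomal proteins fused to ubiquitin and so carry other symbols, and rack-1, a scaffold on the small subunit, fell in 3 of 3 cases at high salt, with food (median log2 fold change -1.41) and without (median -1.04). ubl-1 fell by 1.65 ± 0.32 (SE) on the log2 scale with food. Of 8 elongation factor genes, among which the list counts iff-1 and iff-2, 7 fell at high salt with food, beside 22.1% of all genes, and 5 without, beside 11.2%. The subunit eef-1G of the exchange factor for eEF1A fell by 1.60 ± 0.25 with food and by 1.33 ± 0.24 without (SE, log2 scale). Lack of food at low salt lowered 1 of these 8, iff-1, beside 4.11% of all genes.

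Initiation factors, which bring mRNA and the first tRNA to the small subunit, fell at high salt in fed larvae. With food 17 of 23 tested genes fell at high salt (median log2 fold change -0.94), beside 22.1% of all genes, and without food 0 of 23 passed by edgeR's quasi-likelihood test (median -0.06), with 2 at an unadjusted p under 0.05, 1 in each direction. eif-3.K, a subunit of eIF3, fell by 1.86 ± 0.29 (SE), and ife-3, a cap-binding eIF4E, by 1.42 ± 0.24 (SE) on the log2 scale with food. Lack of food at low salt lowered 1 of 23, eif-2alpha, beside 4.11% of all genes, while 17 were lower at an unadjusted p under 0.05. The interaction passed for 0 of 23, with 12 above 0 at an unadjusted p under 0.05, so a difference between the effects of salt with and without food was not called. Nucleolar and RNA polymerase I genes, which make the rRNA, fell in 8 of 24 tested cases at high salt with food, a count read beside the 22.1% of all genes called lower, fib-1, a methylase of rRNA, by 1.21 ± 0.32 (SE) on the log2 scale. Without food 0 of them fell, also at an unadjusted p under 0.05, and 1, nol-14, rose by 1.03 ± 0.26 (SE) on the log2 scale, beside 6.72% of all genes called higher. At low salt, lack of food lowered 2 of 24, nol-14 and nifk-1, beside 4.11% of all genes, and 12 of 24 were lower at an unadjusted p under 0.05.

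The mitochondrial ribosome is a separate machine with its own proteins, coded in the nucleus. At high salt with food 53 of its 64 genes fell, with a median log2 fold change of -1.09, beside 22.1% of all genes, and without food, where 11.2% of all genes fell, 0 of 64 passed by edgeR's quasi-likelihood test, with a median of -0.09 and 4 lower at an unadjusted p under 0.05. Lack of food at low salt lowered 18 of 64 (median -0.78, with 46 lower at an unadjusted p under 0.05), where 4.11% of all genes fell and 0 of the 77 cytosolic ones did (median -0.03). The interaction was called above 0 for 8 of 64 mitochondrial and 0 of 77 cytosolic genes, beside 1.56% of all genes. In fed high-salt larvae against unfed low-salt ones 7 of 64 mitochondrial and 76 of 77 cytosolic genes were lower, beside 14.5% of all genes. Whether the cytosolic and the mitochondrial set differ was not tested. Of 14 genes of growth control (TOR, AMPK and related regulators), 2 rose at high salt with food, beside 16.1% of all genes called higher: pha-4, a FoxA factor, by 1.84 ± 0.29 (SE) and aak-1, a catalytic subunit of AMPK, by 1.51 ± 0.25 (SE) on the log2 scale. The Rag GTPase gene raga-1, upstream of TOR, fell by 0.81 ± 0.25 (SE) on the log2 scale, as 1 of 14 beside 22.1% of all genes.

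The authors' deposited table, made by an edgeR exact test per pair of groups, hold all 77 genes. Past a false discovery rate of 0.05, the authors' deposited table lists 76 genes as higher in fed larvae at low than at high salt, beside 45.2% of all its genes listed in either direction, and 70 as higher in unfed larvae at low than at high salt, beside 23.2%. For food, the authors' deposited table lists 1 of 77 as lower without it at low salt, rpl-11.1, beside 13.8% of all its genes in either direction, and 0 of 77 at high salt, beside 0.53%.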

How the data were processed

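Counts per gene were deposited by the authors for 12 libraries whose poly(A) kit was not directional, per the labels' protocols. Bowtie 1.1.2 and HTSeq made them, per the submitters' processing notes; their settings and the genome build are not given in the sources used here, so no coordinates are printed. Log2 fold changes, p-values and false discovery rates of the authors' deposited workbook, from edgeR's exact test on genes over 1 CPM in 3 libraries per its notes, served only for comparison, and its CPM table was not used. Reads on genes ranged from 5613260 to 76542711.

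Counts were analysed with R 4.3.3 and edgeR 4.0.16 (filterByExpr with minimum count 10 and total 15, 18028 genes kept, TMM scaling, robust quasi-likelihood F test, 1 coefficient per group, 6 comparisons, Benjamini-Hochberg over all genes, call at adjusted p under 0.05). The SE is the log2 fold change divided by the square root of F. A second fit took the summed reads of the 77 genes as library size, with no other scaling. Ribosomal RNA means 20 features with RefSeq biotype rRNA or rRNA pseudogene. Of the 77 genes 15 share exon bases with another gene, at most 18.7% of their length (rps-20). The steps were tested on simulated counts. Named genes are the 4 highest and 4 lowest fold changes per comparison, the 8 highest and 4 lowest levels, and all rla genes. The same rule names pairs whose symbols differ only after a dot, those departing from the summed 77, and up to 3 genes per other list by smallest p. rpl-6, rps-6, rps-20, rpl-39 and myo-2 fall outside that rule and were named after their values were seen. unc-54, elt-2, ifb-2 and lin-26 were also named after their values were seen. The 77 genes and all lists were chosen with earlier results of these data known. Alternatives were a replicate block, DESeq2 1.42.0, the exact test, RLE and upper-quartile factors, other filters, fits of 2 groups, and each library left out. In further ones rRNA genes were dropped from the counts, or rRNA and the 77 genes together were left out of scaling only. A planned search of promoter sequences was not run. Replicates are biological per the labels, and how they were kept apart is not stated.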

Additional observations from a re-analysis of the deposited data

How the results depend on the processing

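The counts for high against low salt with food (74 to 76 of 77) and for fed high-salt larvae against unfed low-salt ones (60, with no count filter, to 76) held their direction and stayed within 1.5 times under every alternative run, as did the 0 of 77 for food at high salt. For high salt without food, 58 of 77 were called, against 8 with no count filter, 19 in a fit of the 2 groups alone and 11 to 70 when 1 library was left out. DESeq2 called 71. For the alternative fits the shares of all genes called are not given, so their counts do not set the 77 apart from other genes. For lack of food at low salt 0 became 1 by DESeq2, the exact test, no count filter, the fit of 2 groups and without fed high-salt C and unfed high-salt A together, and was 0 to 1 with 1 library left out. The interaction gave 1 by DESeq2. With the replicate block the 6 counts were 0, 76, 60, 0, 0 and 76 in the order food at low salt, salt fed, salt unfed, food at high salt, interaction and fed high-salt against unfed low-salt. Of same-letter pairs of libraries, 7 of 18 had a correlation of deviations over 0.1 (range -0.09 to 0.35). The values were uneven over groups and letters. Among the groups other than fed high-salt, A pairs had 0.14, 0.23 and 0.35, and C pairs 0.18, 0.24 and 0.32. There B pairs had -0.05, 0.05 and -0.003, and A against C ran from -0.33 to -0.06. Same-letter pairs with a fed high-salt library ran from -0.09 to 0.05, save 0.29 for the B libraries of fed and unfed high-salt larvae. Over all groups, pairs with different letters ran from -0.33 to 0.225. Deviations were taken from the mean of each group's 3 libraries, so these values depend on each other. Whether libraries of a letter share a batch was not tested. Relative to the summed 77 genes, lack of food at low salt gave 1 with the replicate block, 0 to 1 with 1 library left out and 1 without both doubted libraries (added after seeing the data), and high salt without food gave 0 to 1 with 1 library left out. Upper-quartile factors moved the median of all genes to 0.55 for salt with food and that of the 77 to -0.999. The cause of these shifts was not tested. For single genes, 4475 of the recomputed calls stayed on their side of the threshold, 187 lost it and 22 gained it, and none changed sign after a call. Depth is least for fed high-salt C, with 3167905 reads outside rRNA.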
